A study of Mus musculus with 8 samples.

Results

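The genes examined were 10 markers of intestinal tuft cells, Trpm5, Sh2d6, Sh2d7, Dclk1, Pou2f3, Avil, Rgs13, Gnat3, Plcb2 and Gng13, among 49585 gene identifiers measured by RNA-seq in whole intestine of C57BL/6 mice. They were chosen by name, with their difference between the groups already known, so every difference between groups in the 10 genes is given as a description and no test of it is reported. The libraries came from 4 mice that were recipients of Klebsiella and 4 mice that were recipients of Lactobacillus, each a separate mouse of the same strain. The 2 names are genera of gut bacteria. The species and dose given, the duration, whether the mice were germ-free or antibiotic-treated, their sex and age, and the segment of intestine are details the labels leave out. Levels are in FPKM, reads corrected for the length of the gene and the size of the library, which allows levels of different genes to be set side by side. Reads in genes, recovered from the FPKM values, came to between 15753959 and 21548070 per library. All 10 genes were in the table, and 9 reached a mean of 0.5 FPKM over the 8 libraries; Gng13 did not.

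Tuft cells are rare chemosensory cells of the gut epithelium that carry the same transduction machinery as taste receptor cells. A ligand at the luminal surface acts through a receptor and the G protein gustducin on phospholipase C beta, calcium is released from internal stores, and the channel Trpm5 opens and depolarises the cell. In the mouse, this signalling leads to release of interleukin 25, leukotrienes and acetylcholine, which act on innate lymphoid cells and nerves, and succinate made by bacteria and protists is among the known triggers. The cells depend on the transcription factor Pou2f3, a POU-domain protein of the family that binds the octamer motif.

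The promoters of 4 of the genes that stood apart between the groups are shown because the lineage factor of these cells is an octamer-binding protein. They are the 250 bases before the RefSeq start of each gene, 5′ to 3′ on the strand of the gene, on GRCm38.p6. The Trpm5 window is chr7:143094643-143094892 on the minus strand, the Sh2d6 window is chr6:72520037-72520286 on the minus strand, the Sh2d7 window is chr9:54533873-54534122 on the plus strand, and the Avil window is chr10:127000459-127000708 on the plus strand. Capitals mark matches to TATAAA in Sh2d7 and to the octamer core ATGCAAA, or its other strand TTTGCAT, in Avil.
Trpm5: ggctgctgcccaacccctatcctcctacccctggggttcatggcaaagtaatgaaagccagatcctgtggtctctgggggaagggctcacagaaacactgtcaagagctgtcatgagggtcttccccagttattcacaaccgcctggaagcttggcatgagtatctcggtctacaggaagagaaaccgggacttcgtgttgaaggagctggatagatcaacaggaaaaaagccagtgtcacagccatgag
Sh2d6: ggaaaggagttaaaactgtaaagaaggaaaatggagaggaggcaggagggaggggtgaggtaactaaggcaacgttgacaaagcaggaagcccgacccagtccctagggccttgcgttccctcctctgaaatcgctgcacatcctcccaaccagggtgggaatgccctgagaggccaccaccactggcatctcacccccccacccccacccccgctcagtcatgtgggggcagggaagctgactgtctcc
Sh2d7: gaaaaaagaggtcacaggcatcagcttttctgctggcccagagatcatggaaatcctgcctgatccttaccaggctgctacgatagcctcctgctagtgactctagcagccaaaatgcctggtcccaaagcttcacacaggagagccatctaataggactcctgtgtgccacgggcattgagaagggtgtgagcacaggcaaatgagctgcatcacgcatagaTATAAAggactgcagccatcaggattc
Avil: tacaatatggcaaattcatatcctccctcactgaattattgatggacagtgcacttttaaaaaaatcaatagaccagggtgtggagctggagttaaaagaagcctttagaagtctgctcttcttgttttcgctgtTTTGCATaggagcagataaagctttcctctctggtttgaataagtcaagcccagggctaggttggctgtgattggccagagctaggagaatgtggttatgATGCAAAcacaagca
RefSeq promoter entries were found for 9 of the 10 genes, 11 entries in all, and the motifs were chosen after the sequences had been looked at. The full octamer ATGCAAAT, or ATTTGCAT on the other strand, was in 0 of the 11 entries, against 1.60% of all 32851 promoter windows of the same length. The core ATGCAAA lies within the octamer and was in 1 entry, that of Avil, with matches whose first bases lay 115 and 15 bases before the start, against 4.12% of all windows. TATAAA, or TTTATA on the other strand, was in the Sh2d7 entry alone, 27 bases before the start, against 12.4% of all windows. The RefSeq start of Sh2d7 lies upstream of the start of the GENCODE gene given below, and that of Sh2d6 lies inside its gene. A match is only a run of letters, and no match says nothing about binding elsewhere.

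The 10 genes together were higher in the Klebsiella recipients. Their summed level was between 40.3 and 49.4 FPKM in the Klebsiella libraries and between 22.5 and 33.5 FPKM in the Lactobacillus libraries. The log2 difference, Klebsiella minus Lactobacillus on log2(FPKM + 0.5), was above 0 for 10 of 10 genes, with a median of 0.53 (0.54 over the 9 genes other than Gng13), while 46.4% of all 16865 genes tested had a difference above 0 and their median was -0.02. For 5 of the 10 genes, Trpm5, Sh2d6, Sh2d7, Pou2f3 and Avil, every Klebsiella library was above every Lactobacillus library; this held for 1.19% of all genes tested, and 2.99% were apart in either direction. Without Lactobacillus mouse 4 this was so for 8 of the 10, with Dclk1, Rgs13 and Gnat3 added, and for 2.19% of all genes. Nothing is read from these shares, since the genes were chosen for this contrast. In whole tissue, a difference in the number of tuft cells and a difference in RNA per tuft cell cannot be told apart.

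**Figure D1:**
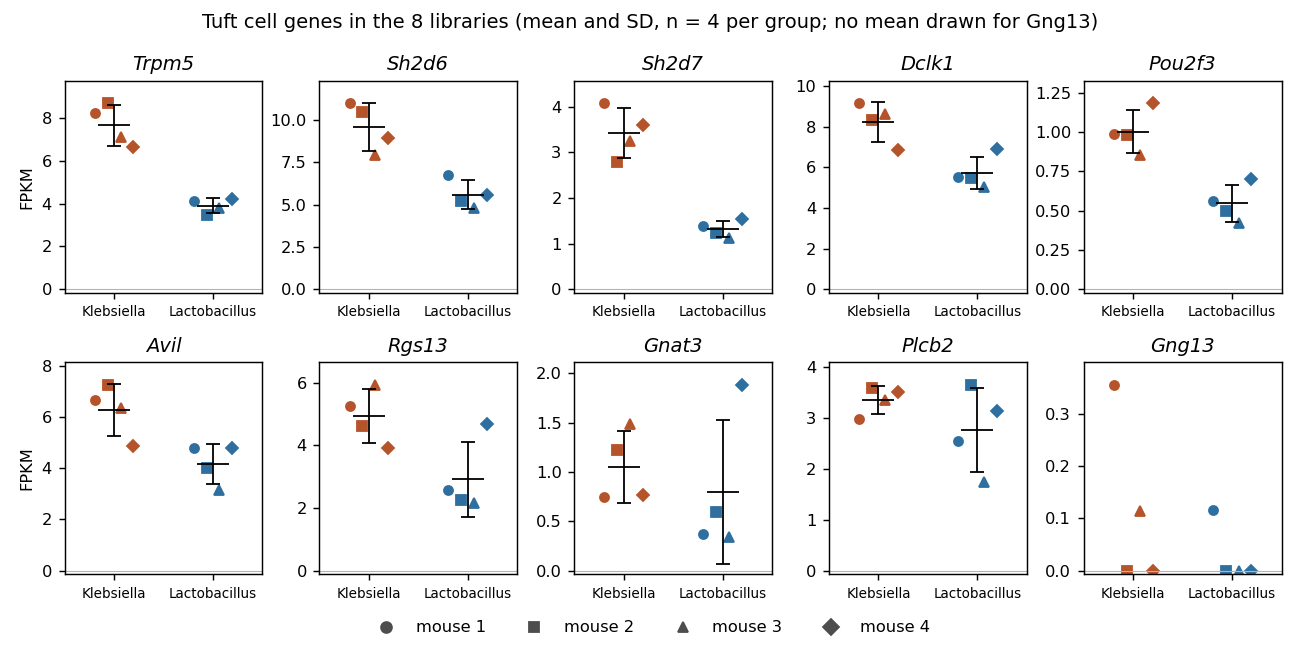
FPKM of each of the 10 genes in the 4 Klebsiella (left) and 4 Lactobacillus (right) libraries; symbols mark the mouse number, and horizontal lines with bars give the mean and SD of each group, except for Gng13. Trpm5, Sh2d6, Sh2d7, Pou2f3 and Avil show no overlap between the groups, and Lactobacillus mouse 4 stands among or above the Klebsiella values for Dclk1, Rgs13 and Gnat3.

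Gnat3 (ENSMUSG00000028777), which encodes the alpha subunit of gustducin, lies at chr5:17962549-18019834 on the plus strand. It had 0.745, 1.22, 1.49 and 0.762 FPKM in Klebsiella mice 1 to 4, against 0.367, 0.594, 0.340 and 1.89 FPKM in Lactobacillus mice 1 to 4. The highest of the 8 values was in a Lactobacillus library, and the other 3 Lactobacillus values were below all 4 Klebsiella values. The means were 1.05 ± 0.364 FPKM in Klebsiella and 0.797 ± 0.735 FPKM in Lactobacillus libraries (SD, n = 4 each), a log2 difference of 0.38. Between 8 and 45 reads lay behind each value.

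Gng13 (ENSMUSG00000025739; chr17:25717171-25719406, plus strand), the gamma subunit that partners gustducin in taste cells, was hardly detected. It had 3, 0, 1 and 0 reads in Klebsiella mice 1 to 4, against 1, 0, 0 and 0 reads in Lactobacillus mice 1 to 4. No library exceeded 3 reads, the limit that a count of 0 allows, so no fold is given. The gene overlaps Chtf18 in GENCODE, and no source used here says whether counting took strand into account.

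Plcb2 (ENSMUSG00000040061; chr2:118707517-118728438, minus strand), the phospholipase C downstream of gustducin, had 2.97, 3.59, 3.35 and 3.51 FPKM in Klebsiella mice 1 to 4, against 2.54, 3.65, 1.73 and 3.14 FPKM in Lactobacillus mice 1 to 4. The groups overlapped: Lactobacillus mouse 2 had the highest value of all, and mouse 3 the lowest. The means were 3.36 ± 0.273 FPKM in Klebsiella and 2.77 ± 0.825 FPKM in Lactobacillus libraries (SD, n = 4 each). The log2 difference of 0.27 was the smallest among the 9 genes above the minimum level. Plcb2 is also expressed by leukocytes, which is taken up with the covariation.

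Trpm5 (ENSMUSG00000009246; chr7:143069153-143094642, minus strand), the calcium-activated cation channel at the end of the cascade, had 8.24, 8.70, 7.14 and 6.63 FPKM in Klebsiella mice 1 to 4, against 4.15, 3.48, 3.78 and 4.24 FPKM in Lactobacillus mice 1 to 4. The lowest Klebsiella value was 2.40 FPKM above the highest Lactobacillus value, the widest gap among the 10 genes. The means were 7.68 ± 0.956 FPKM in Klebsiella and 3.91 ± 0.347 FPKM in Lactobacillus libraries (SD, n = 4 each), a ratio of 1.96 and a log2 difference of 0.89. Among the 4 transduction genes, the groups were apart for the channel and overlapped for its upstream partners Plcb2 and Gnat3; whether the differences of these genes differ from each other was not tested.

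Rgs13 (ENSMUSG00000051079; chr1:144138654-144177372, minus strand) encodes a regulator of G protein signalling that speeds the shut-off of G alpha subunits. It had 5.27, 4.63, 5.94 and 3.92 FPKM in Klebsiella mice 1 to 4, against 2.57, 2.25, 2.15 and 4.70 FPKM in Lactobacillus mice 1 to 4. As for Gnat3, 3 Lactobacillus values lay below all Klebsiella values and Lactobacillus mouse 4 did not. The means were 4.94 ± 0.863 FPKM in Klebsiella and 2.92 ± 1.20 FPKM in Lactobacillus libraries (SD, n = 4 each), a log2 difference of 0.71.

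Pou2f3 (ENSMUSG00000032015; chr9:43123939-43210369, minus strand), the lineage transcription factor, was low. It had 0.988, 0.982, 0.855 and 1.18 FPKM in Klebsiella mice 1 to 4, against 0.564, 0.498, 0.418 and 0.702 FPKM in Lactobacillus mice 1 to 4. The groups did not overlap, but the gap was 0.154 FPKM and between 11 and 25 reads lay behind each value. The means were 1.00 ± 0.135 FPKM in Klebsiella and 0.545 ± 0.120 FPKM in Lactobacillus libraries (SD, n = 4 each). Counting error alone gives a coefficient of variation of 24.5% at its mean read number, above the 13.5% seen among the Klebsiella and the 22.1% among the Lactobacillus libraries. Because of the 0.5 added before taking logs, the log2 difference of 0.53 understates the ratio of means, 1.84.

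Of the 2 cytoskeletal genes, Avil (ENSMUSG00000025432; chr10:127000709-127020994, plus strand), which encodes the actin-binding protein advillin, had 6.67, 7.27, 6.38 and 4.86 FPKM in Klebsiella mice 1 to 4, against 4.79, 4.03, 3.14 and 4.78 FPKM in Lactobacillus mice 1 to 4. The groups were apart by only 0.076 FPKM, the distance from Klebsiella mouse 4 to Lactobacillus mouse 1. The means were 6.30 ± 1.02 FPKM in Klebsiella and 4.18 ± 0.784 FPKM in Lactobacillus libraries (SD, n = 4 each), a log2 difference of 0.54. Dclk1 (ENSMUSG00000027797; chr3:55242364-55539068, plus strand), the microtubule-associated doublecortin-like kinase widely used to stain tuft cells, had 9.15, 8.35, 8.63 and 6.85 FPKM in Klebsiella mice 1 to 4, against 5.52, 5.46, 5.05 and 6.89 FPKM in Lactobacillus mice 1 to 4. Here Klebsiella mouse 4 was just below Lactobacillus mouse 4, with a difference of -0.042 FPKM, and the remaining values did not overlap. The means were 8.24 ± 0.988 FPKM in Klebsiella and 5.73 ± 0.800 FPKM in Lactobacillus libraries (SD, n = 4 each), a log2 difference of 0.49.

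The 2 genes for SH2-domain proteins, which bind phosphorylated tyrosines, are tuft cell markers with little described function. Sh2d6 (ENSMUSG00000052631; chr6:72513641-72521707, minus strand) had 11.0, 10.5, 7.94 and 8.96 FPKM in Klebsiella mice 1 to 4, against 6.75, 5.24, 4.80 and 5.59 FPKM in Lactobacillus mice 1 to 4. Its means were 9.59 ± 1.40 FPKM in Klebsiella and 5.59 ± 0.837 FPKM in Lactobacillus libraries (SD, n = 4 each), a log2 difference of 0.73. Sh2d7 (ENSMUSG00000046460; chr9:54538984-54545020, plus strand) had 4.07, 2.78, 3.25 and 3.59 FPKM in Klebsiella mice 1 to 4, against 1.38, 1.24, 1.11 and 1.54 FPKM in Lactobacillus mice 1 to 4. Neither gene overlapped between the groups. Sh2d7 had the largest log2 difference of the 10, with means of 3.42 ± 0.544 FPKM in Klebsiella and 1.32 ± 0.183 FPKM in Lactobacillus libraries (SD, n = 4 each), a ratio of 2.60 and a log2 difference of 1.11. It was also the only 1 of the 10 among the 15 genes the authors deposited in a table of their own. Trpm5, Sh2d7 and Avil overlap Tssc4, Cib2 and Tsfm in GENCODE, so reads could be shared between these partners if strand was not used in counting.

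The order of the levels was alike in the 2 groups but not the same. In the Klebsiella libraries Sh2d6 had the highest mean, followed by Dclk1, Trpm5, Avil, Rgs13, Sh2d7, Plcb2, Gnat3, Pou2f3 and Gng13. In the Lactobacillus libraries Dclk1 came first, followed by Sh2d6, Avil, Trpm5, Rgs13, Plcb2, Sh2d7, Gnat3, Pou2f3 and Gng13. Neighbouring means differed by less than the SD of either gene for Dclk1 and Trpm5, Sh2d7 and Plcb2, and Gnat3 and Pou2f3 in the Klebsiella libraries, and for Dclk1 and Sh2d6, Avil and Trpm5, and Rgs13 and Plcb2 in the Lactobacillus libraries. Set against Trpm5 in the same library, Dclk1 stood at a ratio of 0.959 to 1.21 in the Klebsiella libraries and 1.33 to 1.63 in the Lactobacillus libraries, with no overlap. The ratio of Sh2d7 to Trpm5 was 0.320 to 0.541 in the Klebsiella libraries and 0.294 to 0.363 in the Lactobacillus libraries, and these overlapped.

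The epithelium itself was measured by Epcam, the pan-epithelial adhesion molecule. It had 683, 661, 671 and 689 FPKM in Klebsiella mice 1 to 4, against 632, 611, 673 and 654 FPKM in Lactobacillus mice 1 to 4. Divided by Epcam in the same library, 4 of the 10 genes, Trpm5, Sh2d6, Sh2d7 and Pou2f3, still had every Klebsiella value above every Lactobacillus value, and Avil no longer did; the same held for 0.374% of all genes tested. Per 1000 FPKM of Epcam, Trpm5 stood at 9.63 to 13.2 in the Klebsiella libraries and 5.62 to 6.57 in the Lactobacillus libraries. The summed 13 epithelial markers were at 11010 to 13130 FPKM in the Klebsiella libraries and 10710 to 12310 FPKM in the Lactobacillus libraries, with 10 of 13 means higher in Klebsiella.

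Other features of the samples differed in level between the groups, with none past the adjusted threshold. Of 8 goblet cell markers, 6 had a higher mean in the Klebsiella libraries and their median log2 difference was 0.45, with sums of 15740 to 17720 FPKM in Klebsiella and 10400 to 17730 FPKM in Lactobacillus libraries. Of 10 colonocyte markers, 1 had a higher mean in the Klebsiella libraries and the median log2 difference of the 9 tested was -0.27. Of 8 genes that mark position along the gut, 2 had a higher mean in the Klebsiella libraries, and the posterior gene Hoxd13 had a log2 difference of -1.97 (limma adjusted p = 0.774). Summed position markers ranged from 405 to 2557 FPKM in Klebsiella and from 703 to 3205 FPKM in Lactobacillus libraries. The part of segment and cell composition in the tuft gene values was not tested.

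Several of the 10 genes are also made by other cells of the gut wall: Rgs13 by germinal centre B cells and mast cells, Avil and Dclk1 by neurons. Summed germinal centre B cell markers were at 41.8 to 81.7 FPKM in the Klebsiella libraries and 43.8 to 84.1 FPKM in the Lactobacillus libraries, with 5 of 13 means higher in Klebsiella. Summed mast cell markers were at 36.0 to 57.1 FPKM in the Klebsiella libraries and 32.8 to 45.5 FPKM in the Lactobacillus libraries, with 4 of 11 means higher in Klebsiella and Tpsab1 at 0. Neuronal and glial markers summed to 46.1 to 113 FPKM in the Klebsiella libraries and 65.4 to 128 FPKM in the Lactobacillus libraries, with 5 of 13 means higher in Klebsiella. In none of these 3 lists were the sums of the groups apart.

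Other genes of tuft cells were then compared between the groups with limma, which fits all genes together. Across all 16865 genes, the test called 0 genes at an adjusted p under 0.05, or 0%, and 1024 (6.07%) had an unadjusted p under 0.05, of which 430 (2.55%) were higher in Klebsiella. Voom on recovered reads also called 0. In 4 lists of tuft cell genes that leave out the 10, 91 of 114 genes in the table were tested and limma called 0, with a smallest adjusted p of 0.774. Before adjustment, 5 of them had a p under 0.05 and were higher in Klebsiella, 2 were lower, and voom called 0. The log2 difference was above 0 in 59 and below 0 in 32 of the 91, with a median of 0.07. Among all genes tested 46.4% were above 0, with a median of -0.02, and this share also stands beside the counts of single lists below. The median of 0.53 for the 10 genes is no fair comparison, since they were chosen with this contrast known. Of the 91, Alox5 had every Klebsiella library above every Lactobacillus library, and Aldh2 the reverse. Over all genes tested, 1.19% were apart in the direction of Alox5 and 2.99% in either direction.

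**Figure D2:**
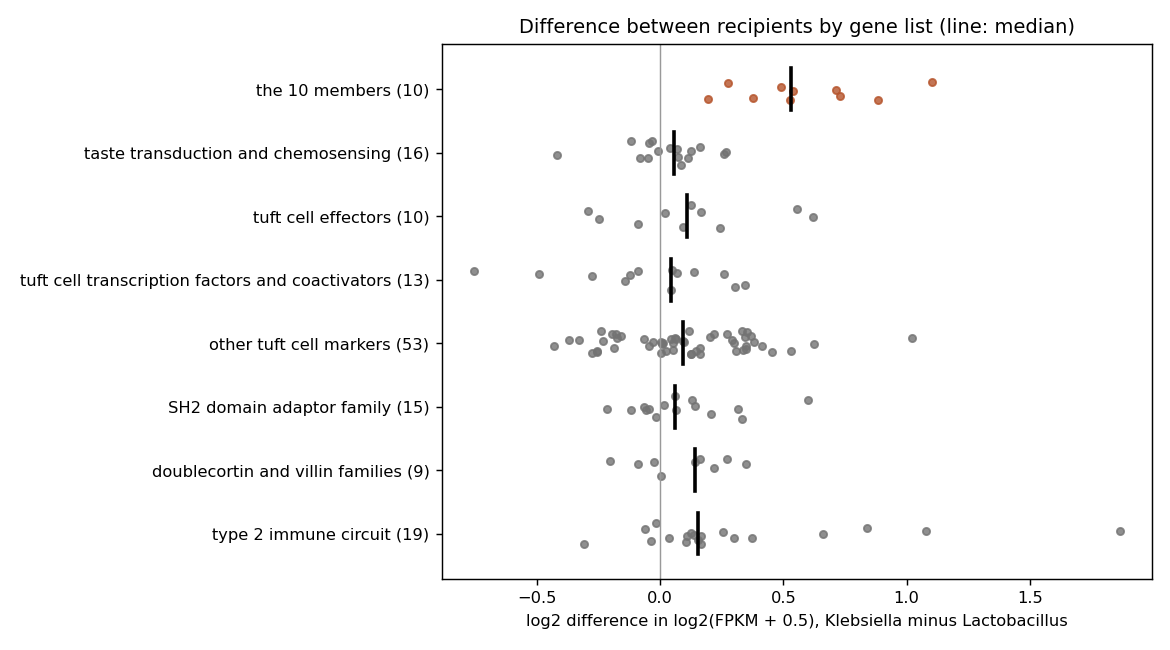
Log2 difference (Klebsiella minus Lactobacillus, log2(FPKM + 0.5)) of single genes in 8 lists, with the number of genes in parentheses; each point is a gene and each black line the median of its list. The 10 members, at the top, lie between 0.19 and 1.11, and the medians of the other 7 lists lie between 0.045 and 0.16.

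Among taste transduction and chemosensing genes, 33 of 34 were in the table and 16 were tested, 9 above and 7 below a difference of 0, with a median of 0.05. Most taste receptors were at or near 0: Tas2r126, Tas2r105 and Tas2r131 had no reads in any library, the succinate receptor Sucnr1 was at 0 to 0.107 FPKM in Klebsiella and 0 to 0.209 FPKM in Lactobacillus libraries, and of the Tas1r and Tas2r genes only the taste receptor subunit Tas1r3 reached the minimum level. Tas1r3 had 0.827, 1.02, 0.748 and 0.703 FPKM in Klebsiella mice 1 to 4, against 0.762, 0.402, 0.604 and 0.680 FPKM in Lactobacillus mice 1 to 4, and the groups overlapped. The beta subunit of gustducin, Gnb3, was at 0.0459 to 0.290 FPKM in Klebsiella and 0.184 to 0.348 FPKM in Lactobacillus libraries. Broadly expressed partners were abundant and close between the groups: the log2 difference was 0.07 for the G protein subunit Gnai2, 0.04 for Gnb1 and -0.04 for Trpm4, the channel related to Trpm5 (limma adjusted p between 0.92 and 0.976). The IP3 receptor Itpr2 had 0.13, the phospholipase Plcg2 0.27, the G protein regulator Rgs2 0.07 and the potassium channel Kcnj2 -0.42, none past the threshold.

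Among 10 tested genes for tuft cell effectors, 7 were above and 3 below a difference of 0, with a median of 0.11. Alox5, the lipoxygenase that begins leukotriene synthesis, had 4.66, 3.71, 3.65 and 4.47 FPKM in Klebsiella mice 1 to 4, against 3.43, 2.35, 2.78 and 1.68 FPKM in Lactobacillus mice 1 to 4. Its groups did not overlap, and its log2 difference of 0.62 had a limma p of 0.0119 unadjusted and 0.774 adjusted. Alox5ap, which presents arachidonic acid to that enzyme, had 0.56 and overlapped. The cyclooxygenase Ptgs1 had a log2 difference of 0.24, the prostaglandin D synthase Hpgds 0.12, and the phospholipases Pla2g4a and Pla2g16 0.09 and 0.02. Tslp, an epithelial cytokine, had -0.29. Il25, the tuft cell cytokine, was at 0 to 0.294 FPKM in Klebsiella and 0.0435 to 0.107 FPKM in Lactobacillus libraries, and Chat, which makes acetylcholine, at 0.328 to 0.524 FPKM in Klebsiella and 0.313 to 0.522 FPKM in Lactobacillus libraries, so neither was tested. Alox5 and Alox5ap are also leukocyte genes.

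Of 13 tested transcription factors and coactivators, 7 were above and 6 below a difference of 0, with a median of 0.045. Runx1, also a blood cell factor, had the smallest p, with 10.4, 10.4, 8.42 and 10.8 FPKM in Klebsiella mice 1 to 4, against 8.44, 8.28, 6.96 and 7.34 FPKM in Lactobacillus mice 1 to 4. Its groups overlapped by the value of a single library, and its log2 difference was 0.35 (limma adjusted p = 0.774). Nfatc1 had 0.26, Hmx2 0.30, Ehf 0.05 and the stem cell factor Sox9 0.07. The secretory lineage factor Atoh1 had -0.75, Hes1, which opposes it, -0.28, and the stem cell factor Ascl2 -0.49, none past the threshold. Among 53 tested other markers, 37 were above and 16 below a difference of 0, with a median of 0.09. The keratin gene Krt18 had 0.62, the nebulette gene Nebl 0.45 and the Rac regulator gene Chn2 1.02, all with overlapping groups. The aldehyde dehydrogenase gene Aldh2, abundant throughout the epithelium, had 589, 514, 493 and 504 FPKM in Klebsiella mice 1 to 4, against 691, 621, 880 and 656 FPKM in Lactobacillus mice 1 to 4, a log2 difference of -0.43 (limma adjusted p = 0.774).

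The families to which Sh2d6, Sh2d7, Dclk1 and Avil belong were also read. Of 15 tested genes for other SH2 adaptors, 9 were above and 6 below a difference of 0, with a median of 0.06 and a smallest limma p of 0.111 unadjusted. Sh2d4a, the abundant member of the same naming series, had 46.2, 34.0, 38.6 and 53.4 FPKM in Klebsiella mice 1 to 4, against 39.2, 40.0, 44.6 and 38.5 FPKM in Lactobacillus mice 1 to 4, and overlapped. Shf had a log2 difference of 0.60, Shb 0.33, Bcar3 0.32, Sh3bp2 0.14 and Sh2b1 -0.04. Of 9 tested doublecortin and villin family genes, relatives of Dclk1 and Avil, 6 were above and 3 below 0, with a median of 0.14. Villin itself, Vil1, had 0.27, Svil 0.35, Scin 0.22, Capg 0.16, Flii -0.03 and Gsn -0.09, none past the threshold.

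Genes of the type 2 immune circuit, which tuft cells feed through interleukin 25 and which acts back on them through interleukin 13, had a median log2 difference of 0.16 over 19 tested, 15 above and 4 below 0. Ccl11, the eosinophil attractant eotaxin, had 11.8, 13.6, 13.8 and 16.03 FPKM in Klebsiella mice 1 to 4, against 8.89, 9.53, 6.67 and 9.22 FPKM in Lactobacillus mice 1 to 4. Its groups did not overlap, and the log2 difference of 0.66 had a limma p of 0.00126 unadjusted and 0.774 adjusted. The receptor subunit Il4ra had 0.37 with overlapping groups, the transducer Stat6 0.16 and the lymphoid factor Rora 0.26. In 4 of the 19 genes, Ccl11, Stat6, Rora and the neuromedin receptor gene Nmur1, every Klebsiella library was above every Lactobacillus library, against 1.19% of all genes tested, and limma called none of the 4 after adjustment; Nmur1 was named after its values were seen. Retnlb and Areg varied widely among mice of the same group: Areg had 80.2, 114, 5.20 and 65.8 FPKM in Klebsiella mice 1 to 4, against 60.1, 8.28, 5.71 and 5.44 FPKM in Lactobacillus mice 1 to 4. Il9, Ear1 and Ear6 were at 0 in all 8 libraries.

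How the 10 genes varied among mice of the same group is another measure than the difference between groups, which was known at their choice. Whether the choice was independent of this variation was not tested. Each value was expressed as its deviation from its group mean on log2(FPKM + 0.5). In Lactobacillus mouse 3 all 10 genes were below the group mean, and 8 of the 10 had their lowest value of all libraries there. Gng13 counts among the 10 with 0 reads in Lactobacillus mouse 3. In Lactobacillus mouse 4, 9 of 10 genes were above the group mean. The matching shares of all genes tested were not computed, so nothing is read from these counts. In Klebsiella mouse 4, 7 were below and 3 above it. The median deviation was -0.22 in Klebsiella mouse 4, against -0.19 in Lactobacillus mouse 3 and 0.19 in Lactobacillus mouse 4.

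**Figure D3:**
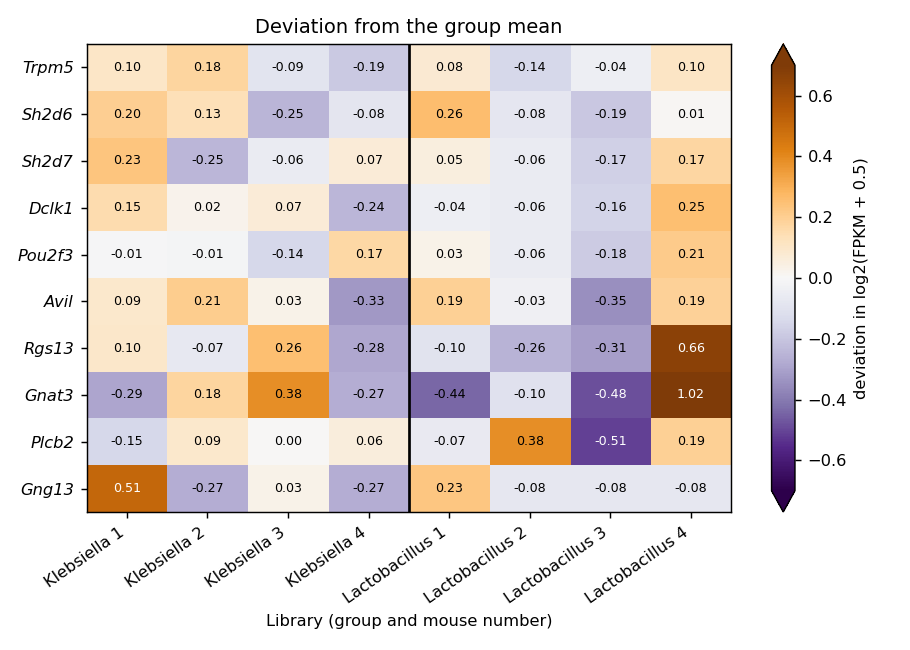
Deviation of each gene (rows) from the mean of its group in each library (columns, Klebsiella left of the line and Lactobacillus right of it), in log2(FPKM + 0.5), with the value printed in each cell and colours saturating at the ends of the bar. The Lactobacillus mouse 3 column is negative throughout, and the largest deviations are 1.02 for Gnat3 and 0.66 for Rgs13 in Lactobacillus mouse 4.

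Over the 45 pairs of genes, 40 within-group correlations were positive and the median Pearson r was 0.38, with a range of -0.28 to 0.90 (8 libraries, group means removed). For all 142205680 pairs of tested genes, 51.0% were positive, the median was 0.01 and 6.27% reached 0.7, against 88.9% positive and 13.3% at 0.7 or above for the 10 genes. Gng13, with at most 3 reads in a library, is not among the tested genes, and the -0.28 is its r with Plcb2. Without Gng13, 36 pairs remained, 94.4% positive, with a median of 0.39 and 16.7% at 0.7 or above. All pairs share the same libraries, and pairs that share a gene are not independent. An exact two-sided permutation test over all reassignments of mice within groups, adjusted over the 45 pairs, passed 0 pairs for Pearson and 0 for Spearman, whose median was 0.33. Before adjustment, 3 pairs had a p under 0.05 by Pearson. A single pair could not have passed, since the smallest p these reassignments can give, 0.0017, becomes 0.0781 when adjusted over 45.

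The highest correlation was that of Dclk1 and Rgs13, with r = 0.90 (exact permutation p = 0.0122, adjusted p = 0.547) and Spearman's rho = 0.95 (exact permutation p = 0.0069, adjusted p = 0.312). It was 0.52 without the 2 libraries that deviated most from their group mean in Dclk1, and 0.83 without Lactobacillus mouse 4. Rgs13 and Gnat3 had r = 0.87 and rho = 0.74 (exact permutation p = 0.0521 and 0.0642, adjusted p = 0.586 and 0.649), and r was 0.45 without Lactobacillus mouse 4, on which the relation rests. Dclk1 and Avil had r = 0.78 and rho = 0.62 (exact permutation p = 0.0417 and 0.1562, adjusted p = 0.586 and 0.649). Trpm5 and Avil had r = 0.75 and rho = 0.79 (exact permutation p = 0.0382 and 0.0417, adjusted p = 0.586 and 0.649). Trpm5 and Sh2d6 had r = 0.71 and rho = 0.60 (exact permutation p = 0.0955 and 0.1840, adjusted p = 0.716 and 0.649). These last 3 relations kept an r of at least 0.7 without Lactobacillus mouse 4. Without the 2 libraries that deviated most from their group mean in the gene named first, r was 0.52, 0.55 and 0.75. Dclk1 and Gnat3 had r = 0.72 and rho = 0.57 (exact permutation p = 0.0903 and 0.1875, adjusted p = 0.716 and 0.649), and r was -0.30 without Lactobacillus mouse 4 and Klebsiella mouse 4.

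**Figure D4:**
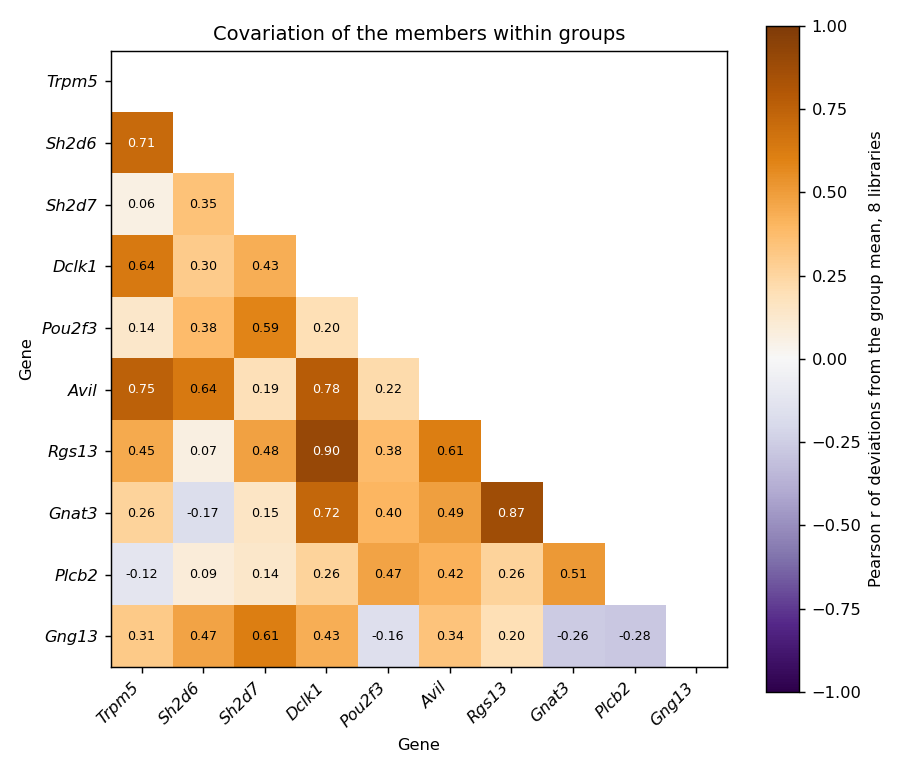
Pearson r between the deviations of each pair of the 10 genes from their group means over 8 libraries, with the value printed in each cell. The highest values join Dclk1, Rgs13, Gnat3, Avil, Trpm5 and Sh2d6, from 0.71 to 0.90 in 6 pairs, and the lowest, -0.28, is that of Plcb2 and Gng13.

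The 2 genes with the largest differences between the groups did not vary together within them: Trpm5 and Sh2d7 had r = 0.06 and rho = 0.00 (exact permutation p = 0.9219 and 1, adjusted p = 0.922 and 1), and r was 0.83 without Klebsiella mice 4 and 2. Sh2d7 had its lowest Klebsiella value in mouse 2, where Trpm5 had its highest. The pair of SH2 genes had r = 0.35. Against the mean of the other 9 genes, Dclk1 had r = 0.84, Avil 0.79, Rgs13 0.75, Trpm5 0.55, Sh2d7 0.51, Gnat3 0.51, Sh2d6 0.49, Pou2f3 0.44, Plcb2 0.29 and Gng13 0.27. Among 13907 ranked protein-coding genes, 43 were more like that mean than Dclk1 was, and 3208 more like it than Plcb2 was. Each gene was scaled to the same spread before averaging. Gng13, with at most 3 reads in a library, therefore weighed as much as any other gene in the means that hold it.

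Plcb2, which had a low correlation with the other 9, was also set beside the leukocyte content of the libraries. With Ptprc, the pan-leukocyte gene for CD45, it had r = 0.91 (exact permutation p = 0.0052, adjusted over 50 relations 0.26) and rho = 0.90 (exact permutation p = 0.0122, adjusted p = 0.608), and r was 0.70 without Lactobacillus mice 3 and 2. Ptprc had 12.0, 17.8, 12.4 and 21.5 FPKM in Klebsiella mice 1 to 4, against 14.9, 21.3, 7.71 and 17.7 FPKM in Lactobacillus mice 1 to 4, and its groups overlapped. Trpm5 had r = -0.16 and rho = -0.29 with Ptprc (exact permutation p = 0.7066 and 0.5035, adjusted p = 0.946 each). None of the 50 relations computed between the 10 genes and single marker genes of other cell types, Epcam, Ptprc, Uchl1 and Chga among them, passed the adjusted threshold, and the relations of Plcb2 and Trpm5 with Ptprc were singled out after their values were seen. Some tuft cells also express Ptprc in mice.

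**Figure D5:**
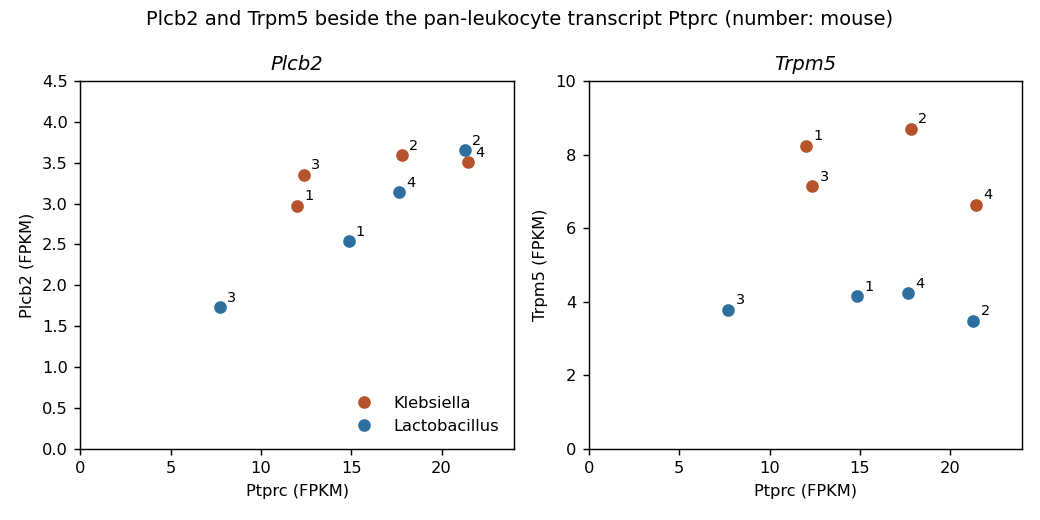
FPKM of Plcb2 (left panel) and Trpm5 (right panel) against FPKM of the leukocyte gene Ptprc in 4 Klebsiella and 4 Lactobacillus libraries, with the mouse number beside each point. Plcb2 is lowest, at 1.73 FPKM, where Ptprc is lowest, at 7.71 FPKM, while Trpm5 lies between 6.63 and 8.70 FPKM in the Klebsiella and between 3.48 and 4.24 FPKM in the Lactobacillus libraries.

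The mean of the 10 was taken after each gene was scaled to the same spread. Gng13, with at most 3 reads in a library, was not left out, so its counting error weighs on every r with this mean. The genes whose within-group pattern was most like the mean of the 10 were Kcng1 (r = 0.968), Lrrc28 (0.967), Pigz (0.944), Dynlt1a (0.941), Skp1a (0.937), Cpxm1 (0.928), Ubxn2b (0.925), Stard9 (0.921), Gapdhs (0.921) and Garnl3 (0.917), over 8 libraries. None is on the lists of tuft cell genes, and 9 of these 10 had a negative log2 difference between the groups, from -0.29 to -0.01, with overlapping groups. Of all ranked genes, 2.21% had an r of at least 0.7 with the mean of the 10. Of 53 other tuft cell markers, 35 had a positive r with it, with a median of 0.17. Among all ranked genes 50.4% were positive, with a median of 0.00. A positive r was found in 9 of 16 taste transduction genes (median 0.07), 6 of 10 effectors (0.02) and 7 of 13 transcription factors and coactivators (0.01). All 13 neuronal and glial markers had a positive r, with a median of 0.54. So did 8 of 10 germinal centre B cell markers (median 0.47), 7 of 9 colonocyte markers (0.36) and 10 of 16 enteroendocrine markers (0.26). Medians were 0.04 for mast cell, 0.03 for fibroblast, 0.00 for goblet and -0.13 for epithelial markers. Of 10 myeloid markers 1 had a positive r, with a median of -0.30. The part of these cell types in the values of the 10 genes within groups was not tested. The single genes most like each of the 10 were Casz1 for Trpm5 (r = 0.970), Jmjd4 for Sh2d6 (0.964), Nbn for Sh2d7 (0.986), Lrch2 for Dclk1 (0.962), Taok1 for Pou2f3 (0.987), Rhbdd2 for Avil (0.964), Nt5e for Rgs13 (0.990), Syap1 for Gnat3 (0.994), Ostm1 for Plcb2 (0.979) and Adamts2 for Gng13 (0.938).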

How the data were processed

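RNA was taken with Trizol from frozen intestine of 8 mice and made into libraries with an Illumina TruSeq kit, per the labels' protocols. The submitters' processing notes name STAR 2.5.1b, HTSeq 0.6.0, DESeq2 1.10.1 and CASAVA without saying what each did; no source used here gives a build, annotation or strandedness. FPKM values per gene were deposited by the authors, with counts of filtered reads per library, between 40455910 and 55447220. Symbols and positions came from GENCODE release M21 (GRCm38), promoters from RefSeq on GRCm38.p6; 49326 of 49585 identifiers had a symbol.

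Values were analysed as log2(FPKM + 0.5) for 16865 genes with a mean of at least 0.5 FPKM, a scale that understates changes of low genes. limma 3.58.1 (trend, two-sided, Benjamini-Hochberg, threshold 0.05) in R 4.3.3 was fitted over all of them, without covariates. All 26963 genes detected in 2 or more libraries (100%) had FPKM values that were whole multiples of 1 read to within 0.001. The read numbers are exact only up to a factor shared by all libraries of a gene, and they give counting error only. Voom with edgeR 4.0.16 on these reads called 0 genes. Correlations used Python 3.11.15 and exact within-group permutation. Scripts were tested on simulated data.

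The 10 genes, the gene lists and the naming rule were chosen with earlier results of these data known. The rule names from each list the 4 genes of highest mean and the 4 of smallest p, and the 10 most alike genes; genes at or near 0, Ptprc, Epcam and Hoxd13 were added after their values were seen. Lists held 34 taste, 13 effector, 16 transcription factor and 56 other marker genes, 23 SH2 adaptors, 10 doublecortin and villin relatives and 26 type 2 genes, besides cell type markers. Mice are separate samples per the labels. Alternatives were other pseudocounts, filters and scalings, a replicate block, voom, each library left out and 2 pairs of libraries left out; the counts of genes with no overlap under other settings were added later. Of the marker genes correlated with the 10, 1 is not reported here.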

Additional observations from a re-analysis of the deposited data

Results flagged for a closer look

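Of the values of the 10 genes in the 4 libraries of each group, 3 had a sample far from the other 3 of its group, by the gap to its nearest neighbour as a share of the range; chance gives this in about 1 in 20 groups. Rgs13 had 4.70 FPKM in Lactobacillus mouse 4, with a gap of 0.834 of the range. Gnat3 had 1.89 FPKM in the same library, with a gap of 0.836 of the range and 45 reads. Gng13 had 0.117 FPKM in Lactobacillus mouse 1, which is 1 read against 0 reads in the other 3 libraries.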

How the results depend on the processing

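The count of genes called between the groups, and that of other tuft cell genes, was 0 under every alternative run. Genes with an unadjusted p under 0.05 numbered 1024 and ranged from 431, without Klebsiella mouse 2 and Lactobacillus mouse 3, to 2009, without Lactobacillus mouse 1; 42.0% of the 1024 were higher in Klebsiella, against 58.2% with a constant total, 57.9% with voom and 6.1% after subtracting the epithelial markers, which moved the median of all genes to -0.172. The median log2 difference of the 10 genes was 0.533, and 0.819 with voom on recovered reads, which left out Gng13. It was lowest, at 0.378, after subtracting the epithelial markers, and 0.450 without Klebsiella mouse 2 and Lactobacillus mouse 3. Leaving out each single library gave 0.451 to 0.660. Of 189 values of single members under alternatives, 180 moved by less than the spread between replicates, 9 by more, and 0 changed sign. The 180 include the values under other filters and under a replicate block, which could not change. Members were kept whatever the filter, and each replicate number has 1 library in each group. These counts say nothing about the difference itself, with which the genes were chosen. The median within-group correlation was 0.384, and 0.200 to 0.473 with each library left out. Deviations of same-numbered mice had correlations of 0.189, -0.100, -0.059 and -0.159, and 1 of 4 pairs matched best with its own number. The labels number the mice within each group, and whether the numbers pair the samples was not tested. With a replicate block the median difference was 0.533 by design, since the block cannot change a difference between balanced groups. With it 0 genes were called, and the median correlation was 0.510, a value with no test. With 11 to 25 reads behind Pou2f3, its spread among libraries of a group was no larger than counting error. Gnat3, with 8 to 45 reads, has a counting error of 21.2% at its mean, against a coefficient of variation of 34.5% among Klebsiella and 92.2% among Lactobacillus libraries.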
